A study of Mus musculus with 89 samples.

Results

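The 10 genes described here mark the medium spiny neuron, the projection neuron that makes up most of the striatum, or encode peptides and receptors of that region: Ppp1r1b, Pde10a, Pde1b, Rgs9, Arpp21, Drd2, Penk, Tac1, Htr2c and Cartpt. They were chosen by name and looked up in both deposited tables of exon skipping events. All 10 were found among the 9542 genes of the first table, with 42 of its 27900 events, and 3 (Arpp21, Pde10a and Tac1) among the 3434 genes of the second, with 7 of its 5608 events. Each event concerns 1 internal exon, and its reads either include or skip that exon. The coverage of a gene is the sum of both kinds of read over its deepest event.

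RNA came from the nucleus accumbens, the ventral striatum, of wild type C57BL/6 mice aged 8 weeks, taken as micro-punches that hold all cells of the region. In one experiment a herpes simplex virus vector (HSV) carried GFP, Set2 or R195G, with 3 libraries each, and in the other dCas9-SET2 was given with sgRNA-NT or sgRNA-SRSF11, with 4 replicates of 4 sequencing runs each. Set2 is a histone methyltransferase, R195G is a label of the study for another vector of that experiment, and dCas9 is a Cas9 that binds DNA without cutting it. The HSV table holds a set of 2 and a set of 3 libraries, and there are 2 sets of 16 runs for dCas9-SET2, all without names. No condition was therefore assigned to any set. In what follows, the 2 libraries of the HSV table's first set are called A1 and A2 (set A) and the 3 of its second set B1, B2 and B3 (set B). Every difference is set B minus set A, or, in the dCas9-SET2 table, the second minus the first set. Another 48 samples of the series (ChIP, input and CUT&RUN) were not analysed here.

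As background, dopamine acts on medium spiny neurons through cAMP. Receptors coupled to a stimulatory G protein raise cAMP and the D2 receptor lowers it, phosphodiesterases degrade it, and protein kinase A passes the signal on to substrates such as DARPP-32, the product of Ppp1r1b. The neurons of the indirect pathway are known for Drd2 and Penk, those of the direct pathway for Tac1, while DARPP-32 and PDE10A are found in both.

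cAMP also reaches genes through CREB, which binds the element TGACGTCA or its shorter core TGACG, so the RefSeq promoters of the members (GRCm38.p6, the 250 bases before each start) were searched for both on either strand. A promoter was found for 8 of the 10 genes, and 5 of them had exactly 1. Of those, 3 are shown as examples of genes that differ in opposite directions or by different amounts below: a gene higher in set B (Cartpt, chr13:99900684-99900933, minus strand), one lower (Tac1, chr6:7554811-7555060, plus strand) and one lower by more (Drd2, chr9:49340153-49340402, plus strand). Each runs 5′ to 3′ and capitals mark the element or core:
Cartpt: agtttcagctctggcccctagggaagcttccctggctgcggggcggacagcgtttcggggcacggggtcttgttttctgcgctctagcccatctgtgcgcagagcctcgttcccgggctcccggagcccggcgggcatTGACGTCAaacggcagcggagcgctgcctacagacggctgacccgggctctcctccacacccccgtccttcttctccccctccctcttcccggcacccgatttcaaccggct
Tac1: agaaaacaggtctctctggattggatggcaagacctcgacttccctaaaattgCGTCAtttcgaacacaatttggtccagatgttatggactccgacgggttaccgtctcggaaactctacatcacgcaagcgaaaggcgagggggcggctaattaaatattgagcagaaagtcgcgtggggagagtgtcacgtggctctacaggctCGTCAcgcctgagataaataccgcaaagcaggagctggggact
Drd2: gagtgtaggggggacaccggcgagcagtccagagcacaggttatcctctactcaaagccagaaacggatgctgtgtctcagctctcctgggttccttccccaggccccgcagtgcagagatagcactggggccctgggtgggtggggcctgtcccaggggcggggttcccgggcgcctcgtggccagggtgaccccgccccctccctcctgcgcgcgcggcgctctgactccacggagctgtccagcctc
The Cartpt promoter held the full element, starting 112 bases before the start, an element found in 1.55% of 32851 promoters of the same length. Each full element contains the core on both strands. Tac1 held 2 cores and no full element. At least 1 core was found in 17.8% of promoters, and the share with 2 was not computed. Drd2 held neither, nor did the remaining genes with a single promoter, Rgs9 (lower in set B) and Htr2c (higher, like Cartpt). A match describes these letters only and shows no binding.

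The HSV libraries held 7428974 to 8638249 reads over all listed events. Nothing in the labels ties them to separate animals, so p-values measure the spread between these libraries, which may be technical. For coverage, limma draws each gene's spread toward that of genes of similar coverage, so it is only partly the gene's own. For inclusion, the spread is a value shared by all events tested and not the exon's own. A1 and A2 differed from each other in choroid plexus genes: Ttr, which choroid plexus secretes, stood at 404.7 CPM (reads scaled to library size) in A1 and 9888 in A2, against 11.9, 7.54 and 6.58 in set B. The summed level of the 18 interferon response genes in the table was 92.6 and 217 CPM against 3788, 3372 and 3717, and the 17 tested were all higher in set B. Sums here run over all genes of a list that stand in the table. Over all 8201 genes tested, limma called 13.2% higher and 9.47% lower in set B. Higher coverage was also called for 5 of 9 microglia genes (sums 1195 and 2578 against 3282, 3243 and 3214 CPM), 7 of 9 oligodendrocyte genes (6543 and 8836 against 11290, 8629 and 11110), 6 of 8 interneuron genes (1096 and 988.7 against 1747, 1609 and 1772, most of set A's sum from Gad1 at 468 and 408 and Gad2 at 396 and 379 CPM, which medium spiny neurons, being GABAergic, express too), 3 of 3 hypothalamus and septum genes (335 and 356 against 729, 911 and 731) and 2 of 7 astrocyte genes (3649 and 3811 against 3917, 3913 and 3866). Most of the hypothalamus and septum sum came from Nnat, at 331 and 341 against 682.8, 725.5 and 689.5 CPM. Gal stood at 163.7 CPM in B2, against 22.4 in B1 and 17.5 in B3. Of the 14 genes of that list, 3 stood in the table. Of 6 pan-neuronal genes 3 were higher and 3 lower (9156 and 7644 against 9109, 8329 and 9168 CPM). Both choroid plexus genes tested were lower, and of 2 cortical neuron genes Cux2 was higher and Nrgn lower. No vascular gene reached the read minimum, with sums of 4.18 to 8.52 CPM. None of the listed marker genes found in the table was at 0 in every library. The part of these cells and of the interferon response in the results below was not tested.

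Of the 10 genes, 8 were lower and 2 higher in set B, each with an adjusted p below 0.05 in limma. Among all 8201 genes tested 22.7% were called, 9.47% lower and 13.2% higher. The median log2 difference of the 10 was -1.57, against 0.00 over all genes. No library of set A fell within the range of set B in any of the 10, as in 49.8% of all genes. In bulk tissue, fewer cells of a type and less RNA per cell cannot be told apart.

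**Figure D1:**
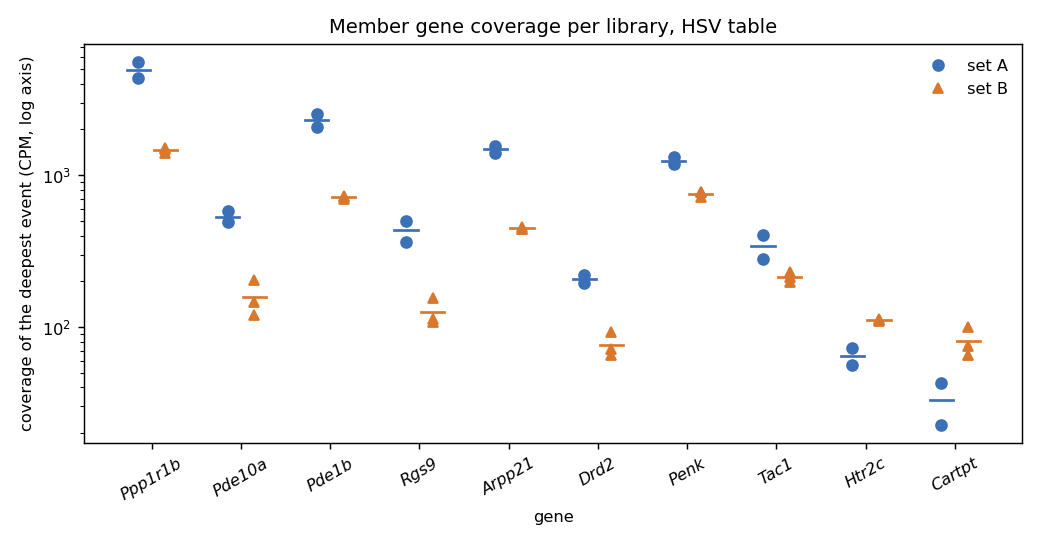
Coverage of the deepest event of each gene in each library of the HSV table, in CPM on a log axis, with circles for set A, triangles for set B and bars for the means. Ppp1r1b to Tac1 lie lower in set B, with the widest gaps from Ppp1r1b to Drd2, and Htr2c and Cartpt lie higher.

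The signalling genes showed the largest differences. Ppp1r1b, whose product DARPP-32 inhibits protein phosphatase 1 once phosphorylated by protein kinase A, had 5551 and 4360 CPM in set A and 1477, 1508 and 1408 in set B. The means were 4956 ± 842 (SD, n = 2) and 1465 ± 51.3 (SD, n = 3). The lowest library of one set thus lay far above the highest of the other, a log2 difference of -1.75 (SE 0.09, adjusted p = 8.89e-08, limma), or 3.36-fold lower.

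Both phosphodiesterase genes followed by nearly the same factor. Pde10a, which encodes a phosphodiesterase of cAMP and cGMP enriched in these neurons, had 578 and 489 CPM against 147, 203 and 120, a log2 difference of -1.80 (SE 0.17, adjusted p = 8.90e-06). Pde1b, a phosphodiesterase switched on by calcium and calmodulin, had 2521 and 2088 CPM against 701, 727 and 720, a difference of -1.68 (SE 0.09, adjusted p = 6.76e-08). Neither gene had overlapping sets, and Pde10a varied more within set B than Pde1b.

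Rgs9, which speeds the switching off of G proteins coupled to dopamine receptors, had 501 and 365 CPM against 112, 155 and 109. Its log2 difference was -1.79 (SE 0.16, adjusted p = 6.10e-06). Arpp21, which encodes a phosphoprotein regulated by dopamine and cAMP, had 1563 and 1393 CPM against 445, 456 and 445. It differed by -1.72 on the log2 scale (SE 0.08, adjusted p = 3.17e-08), with the smallest spread of the 10 within set B relative to its mean.

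The receptors moved in opposite directions. Drd2, the dopamine D2 receptor, had 221 and 196 CPM against 65.5, 92.3 and 71.8, a log2 difference of -1.46 (SE 0.15, adjusted p = 1.48e-05). Htr2c, the serotonin 2C receptor, had 72.4 and 56.4 CPM against 111, 110 and 114, a difference of 0.80 (SE 0.14, adjusted p = 0.000882). The 3 Htr2c libraries on the high side were nearly equal, while those of set A differed from each other.

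The peptide genes differed less or the other way. Penk, the precursor of enkephalins, had 1309 and 1176 CPM against 775, 718 and 770, a log2 difference of -0.72 (SE 0.08, adjusted p = 3.38e-05). Tac1, the precursor of substance P and neurokinin A, had 402 and 281 CPM against 215, 229 and 198, a difference of -0.65 (SE 0.13, adjusted p = 0.00346). Without A1 the Tac1 difference was -0.40, with A2 at 281 CPM the closer to set B.

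Cartpt, the precursor of CART peptides, had 43.1 and 22.7 CPM against 65.5, 100 and 75.4. It was higher in set B by 1.34 on the log2 scale (SE 0.25, adjusted p = 0.00178), the least precise estimate of the 10. Without A2, the library with the high Ttr, the difference was 0.87. The direction of all 10 genes held in the 12 alternatives run for each, and the 8 lower genes were lower without A2 too. Their call held wherever set A kept both libraries. Without A1 or A2 the remaining library of set A is assumed to vary like set B, so those fits are given for direction only.

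The proportions between member genes are given as ratios of coverage. The ratio of Ppp1r1b to Penk coverage was 4.24 and 3.71 in set A and 1.91, 2.10 and 1.83 in set B. Drd2 over Penk, both of the indirect pathway, was 0.169 and 0.167 against 0.0845, 0.129 and 0.0932. Neither ratio overlapped between sets, and both had an exact two-sided permutation p of 0.2, the smallest that 2 against 3 libraries allow. Penk over Tac1, 1 gene of each pathway, overlapped at 3.26 and 4.19 against 3.61, 3.13 and 3.90 (exact permutation p = 0.8). Pde10a, Rgs9, Arpp21 and Pde1b each had overlapping ratios to Ppp1r1b, for example 0.282 and 0.319 against 0.301, 0.302 and 0.316 for Arpp21. In all, 10 ratios between members were computed, and with Benjamini-Hochberg adjustment none could pass at this number of libraries.

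Levels of different genes were compared as RPKM (CPM per kilobase), with inclusion and skipping reads each divided by the length of their own form. In set A Ppp1r1b ranked highest (mean 18153), then Pde1b (8203), Arpp21 (4522) and Penk (4286.5), then Rgs9 (1754), Pde10a (1750.5), Tac1 (1383) and Drd2 (925), with Htr2c (138) and Cartpt (121) last. The ranges of Arpp21 and Penk overlapped, as did those of Rgs9 and Pde10a, Pde10a and Tac1, and Htr2c and Cartpt. In set B Ppp1r1b was again highest (5366), but Penk (2608) now stood beside Pde1b (2549), with overlapping ranges. Arpp21 (1372), Tac1 (866), Pde10a (513), Rgs9 (509) and Drd2 (347) followed, then Cartpt (294) and Htr2c (239). Overlap of neighbours was also seen for Pde10a and Rgs9, Drd2 and Cartpt, and Cartpt and Htr2c. These ranks rest on the deepest event of each gene. For Arpp21 that is the 177-nt event, with 12.1 and 15.8 times the reads of its 228-nt event in set A. The rank of Arpp21 thus depends on the event taken.

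Most member events moved as their gene did. Of the 42 events, on 34 distinct exons, 38 had a mean of at least 20 reads per library, and 36 of these were called in limma, those of Htr2c and Cartpt higher and all others lower. Over all 23498 events tested this way 22.5% were called. Events of 1 gene share reads and are not independent. Pde10a had the most, 16 events on 8 exons, and its 13 tested events lay within -1.80 and -1.59 on the log2 scale. Its 2 most upstream events, on exons of 132 and 123 nt, were too low to test: the 123-nt exon had 11 and 4 skipping reads in set A and 13, 14 and 6 in set B.

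The log2 differences of the Arpp21 events were not of one size along the gene. The gene is known to make a short phosphoprotein and a longer RNA-binding protein. Its 177-nt and 38-nt exons near the 5′ end had log2 differences of -1.71 (SE 0.08) and -1.70 (SE 0.09). The 6 tested events downstream of them lay between -1.01 and -0.79, all still called lower. Reads over the 177-nt event were 12.1 and 15.8 times those over the downstream 228-nt event in set A, and 7.37, 7.00 and 7.55 times in set B. This ratio did not overlap between sets for any of the 6 downstream events (exact permutation p = 0.2 each, the smallest possible). It did for the 38-nt event, at 1.18 and 1.20 against 1.19, 1.132 and 1.21. The 38-nt exon is the next listed after the 177-nt exon, so these 2 events may share reads and their ratio is no independent contrast. The event on the 100-nt exon upstream, at -1.20 (SE 0.35), had 14.0 and 6.79 against 3.46, 4.10 and 5.23 CPM. Reads over the 177-nt event were 54.3 and 101.0 times those over this event in set A and 63.0, 54.6 and 41.6 times in set B, with overlap.

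**Figure D2:**
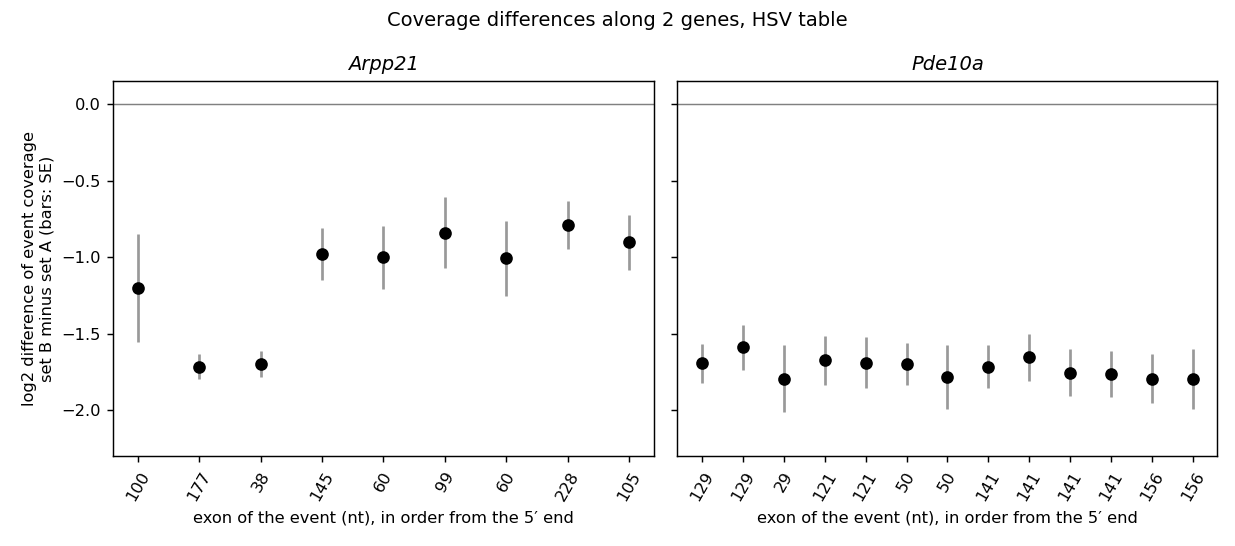
Log2 difference of coverage (set B minus set A, bars are SE) of each tested event of Arpp21 and Pde10a, in order from the 5′ end and marked by exon length. Arpp21 events stand at -1.20 for the 100-nt exon, near -1.7 for the 177-nt and 38-nt exons and between -1.01 and -0.79 downstream, while Pde10a stays between -1.80 and -1.59.

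The 5 Htr2c events all had a positive difference, from 0.56 to 0.82, and 3 were called. One exon was listed with 2 ends that share a start: the 201-nt form had 188 and 180 inclusion reads against 349, 305 and 266, and the form shorter by 95 nt had 90 and 67 against 139, 93 and 105. A shorter Htr2c RNA from a splice site within an exon is known to encode a truncated receptor. These are reads before scaling, and the 2 events share some of them. A 134-nt exon of the gene was almost always skipped, with 5 inclusion reads in the 5 libraries together.

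Inclusion of member exons was tested for 14 events with enough reads of both forms, and none was called in limma (lowest adjusted p = 0.157). Of these, 3 had an unadjusted p below 0.05 in limma, a share that was not computed over all events and so has no background here. The authors' deposited table called none of the 42 at an FDR below 0.05 (lowest 0.231). Over all 7754 events tested 3.69% were called in limma and 12.6% in the authors' deposited table. The sets did not overlap in 3 of the 14, against 28.3% of all. Most member events left little room, though some share an exon. Of the 42 events, 31 had a mean inclusion level (PSI, the fraction of transcripts with the exon) above 0.95 in both sets, and 2 were below 0.05.

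The 3 events were in Drd2, Tac1 and Penk. The 87-nt exon of Drd2 separates the long D2 receptor, which contains it, from the short form. It lies at 49211299 to 49211385 of chromosome 9 in the table, whose build is not stated. The GRCm38 (mm10) promoter shown above, on the plus strand at 49340153 to 49340402, would stand downstream of it. The HSV positions are therefore not in that build. PSI of the exon was 0.877 and 0.852 in set A and 0.814, 0.799 and 0.830 in set B. The sets did not overlap, but the logit difference of -0.39 (SE 0.19) had an adjusted p of 0.348 in limma.

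Tac1 makes several precursor RNAs by skipping. The 45-nt exon, present in β and absent from γ preprotachykinin RNA, had PSI 0.416 and 0.393 against 0.479, 0.421 and 0.465. The lowest library of set B lay just above the highest of set A, and the logit difference of 0.19 (SE 0.08) had an adjusted p of 0.243 in limma. The 54-nt exon, which encodes neurokinin A and is absent from the α form, was included at 0.994 or more in every library. The 140-nt exon of Penk was included at 0.992 or more in all 5, with 1 and 2 skipping reads against 9, 11 and 2 (adjusted p = 0.157, limma).

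Arpp21 had the widest range of inclusion levels among its 4 tested events. The 38-nt exon had PSI 0.103 and 0.0964 against 0.0938, 0.131 and 0.10, and the 99-nt exon 0.245 and 0.276 against 0.370, 0.180 and 0.200. The tested 60-nt exon stood at 0.628 and 0.641 against 0.633, 0.624 and 0.476, and the 105-nt exon at 0.909 and 0.858 against 0.933, 0.892 and 0.905. All overlapped between the sets, with adjusted p values in limma of 0.590, 0.955, 0.698 and 0.842. The 6 tested events of Pde10a and the 1 of Pde1b had PSI of 0.921 or more in every library and adjusted p values of 0.471 to 0.908. A p that misses the threshold does not show equal inclusion.

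**Figure D3:**
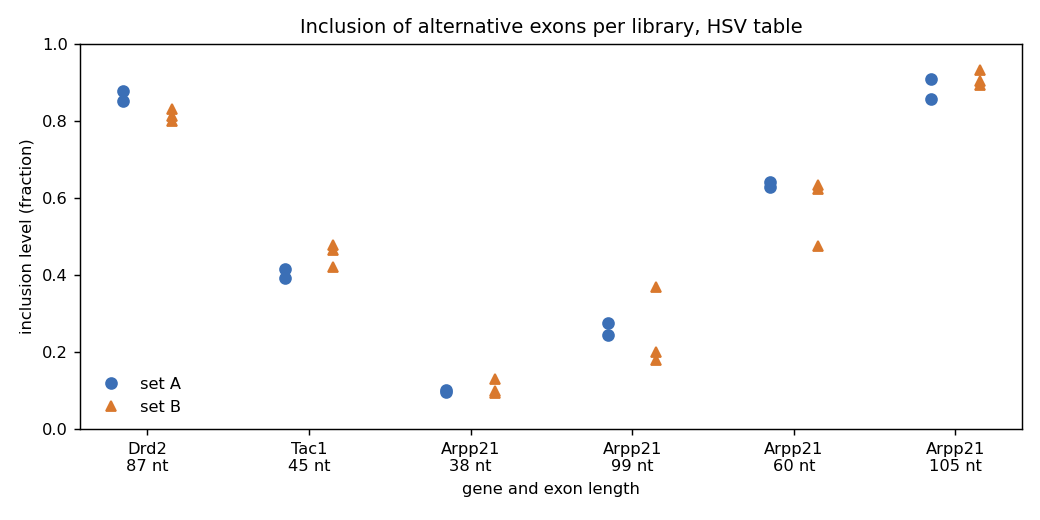
Inclusion level of 6 member exons in each library of the HSV table, with circles for set A and triangles for set B. Drd2 87 nt is lower and Tac1 45 nt higher in set B without overlap, the 4 Arpp21 exons overlap, and none was called in limma.

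Other genes of the dopamine and cAMP pathway were mostly lower too. Of 39 listed, 20 stood in the table and were tested, and 15 were lower and 2 higher. Over all genes tested 9.47% were called lower and 13.2% higher. The median log2 was -0.85 against 0.00 over all genes. The lists were drawn up with earlier results of these data known and are no independent evidence of direction. Hpca, the calcium sensor hippocalcin, had 7337 and 6195 CPM against 1931, 2270 and 1858 (log2 -1.74, SE 0.10). Rasgrp2, an activator of Rap, and Strn, the scaffold striatin, had -1.34 (SE 0.11) and -1.33 (SE 0.15). The 2 higher genes were Gnas, the stimulatory G protein subunit, at 1286 and 1408 against 2323, 2680 and 2367 CPM (log2 0.87, SE 0.08), and Prkar1b, a regulatory subunit of protein kinase A (log2 0.43, SE 0.08). Drd1 and Adora2a were among the 19 not listed in the table.

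Of 8 striatal transcription factor genes tested, 5 were lower and 1 higher, against 9.47% and 13.2% over all genes. Their median log2 was -0.98. Foxp1, a forkhead factor of medium spiny neurons, had 147 and 109 CPM against 35.1, 53.3 and 41.9 (log2 -1.56, SE 0.19), Rarb, a retinoic acid receptor, -1.35 (SE 0.14) and the homeobox gene Meis2 -1.26 (SE 0.10). Zfp521, a zinc finger factor, was higher by 0.38 (SE 0.09), a call lost without B1, without B3 and with reads divided by form length.

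Neuropeptide and peptide receptor genes, including the enzymes that process the precursors, leaned the other way. Of 13 tested, 6 were higher and 1 lower, with a median log2 of 0.38. The shares over all genes were 13.2% higher and 9.47% lower. Nts, the neurotensin precursor, had 39.6 and 44.8 CPM against 114, 148 and 149 (log2 1.69, SE 0.15). Tacr3, the receptor for neurokinin B, differed by 1.43 (SE 0.34) and Chga, the granule protein chromogranin A, by 1.06 (SE 0.11). The lower gene was Pcsk2, a prohormone convertase that processes peptide precursors (-0.84, SE 0.15). Without A2 4 genes were lower, and without B1 3 were higher.

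**Figure D4:**
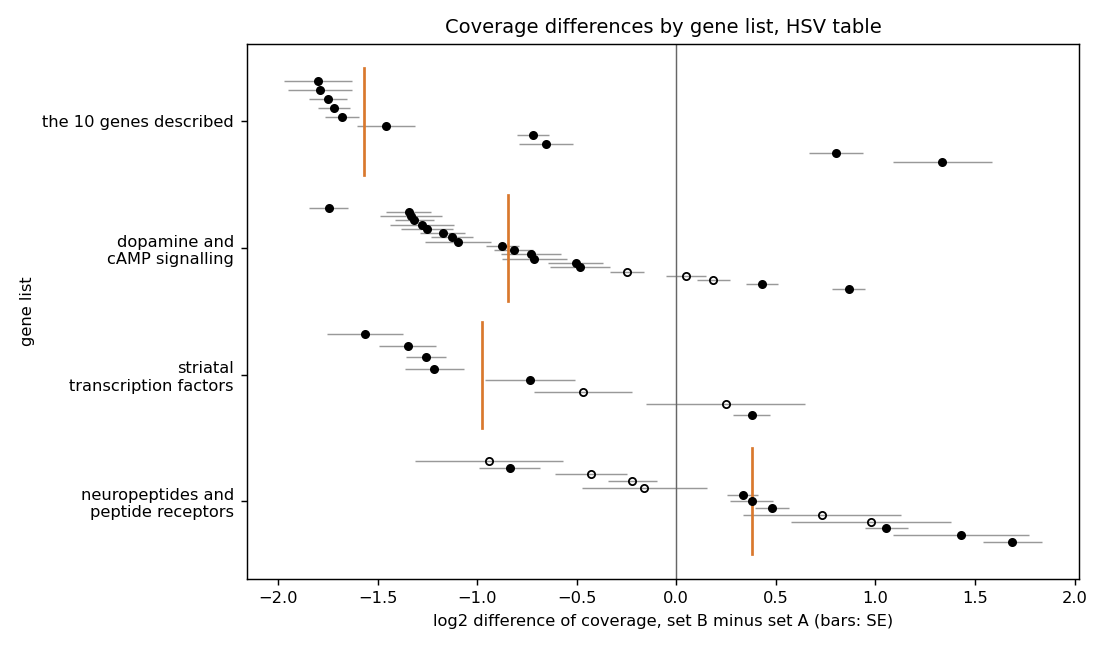
Log2 difference of coverage (set B minus set A, bars are SE) for the 10 genes and the tested genes of 3 lists, with filled points for an adjusted p below 0.05 in limma and a vertical line at each median. The medians are -1.57, -0.85, -0.98 and 0.38 from top to bottom.

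The genes whose centred log2 coverage over the 5 libraries lay nearest to the median profile of the 10 were Stk32a, Pcp4l1, Rarb, Tbc1d8 and Pcp4, at root mean square distances of 0.0673 to 0.111. Pcp4, which encodes a small calmodulin-binding protein, had 2370 and 2041 CPM against 781, 799 and 749. This likeness rests on 5 libraries of 1 comparison and is given as a description.

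The dCas9-SET2 table was far shallower, with 56946 to 106251 listed reads per run. Positions 4 and 8 held identical reads in every event of both sets and were counted once, which left 15 runs a set. Runs of a replicate are not independent and carry no names, so shares were summed over each set and not tested, and intervals cover counting error only. By medians over runs, the share of all 3 members found there was higher in the second set. Pde10a had a median of 1 read per run in each set. By summed share of the deepest event, Tac1 was the only member higher in the second set. Its 45-nt exon (chromosome 6, positions 7557216 to 7557260 of that table) had a share of 795 CPM in the first set (95% exact Poisson interval 749 to 843) and 1352 in the second (1282 to 1425). The log2 ratio was 0.77 (0.65 to 0.88), and the 5th and 95th percentiles over 632 genes of sufficient depth were -0.38 and 0.41.

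Runs of the first set ranged from 500 to 1079 with a median of 756, and those of the second from 690 to 2448 with a median of 1450. All 7 distinct runs at positions 1 to 7 of the second set lay within the range of the first set, and the 8 at positions 9 to 16 lay above it. Inclusion of the exon hardly moved, at PSI 0.314 and 0.323 from summed reads, and the authors' deposited table gave a padj of 0.594 and a dPSI of 0.0071.

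**Figure D5:**
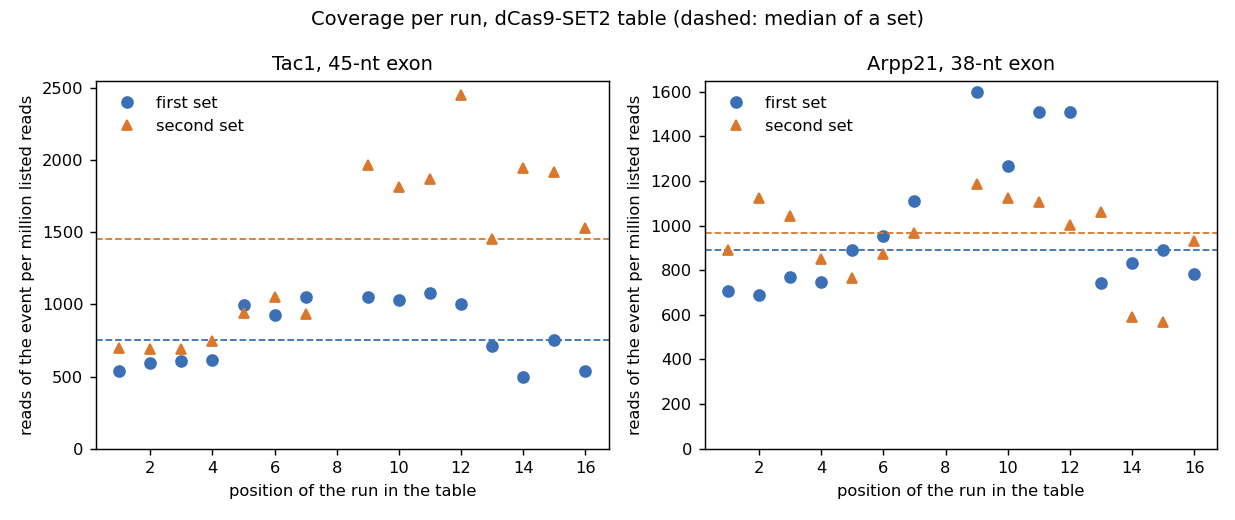
Share of listed reads (CPM) of the Tac1 45-nt and Arpp21 38-nt events in each run of the dCas9-SET2 table, by position in the table, with position 8 left out as a copy of position 4 and dashed lines at the medians. In Tac1 the second set exceeds every run of the first set at positions 9 to 16, and in Arpp21 the first set exceeds every run of the second at positions 9 to 12, while the second lies below every run of the first at positions 14 and 15.

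Arpp21 had 999 CPM over its 38-nt event in the first set (947 to 1052.5) and 944 in the second (885 to 1005), a log2 ratio of -0.08 (-0.20 to 0.04). In the first set the runs at positions 9 to 12 lay between 1267 and 1596 CPM, above the highest run of the second set at 1188. The medians over runs were 889 and 967, so by medians the direction turned (log2 0.12). PSI of that exon was 0.105 and 0.0806. The 99-nt exon had a PSI of 0.464 from 175 reads and 0.342 from 106 reads, and its padj in the authors' deposited table, 0.0754, was the lowest of the 7 member events. The 60-nt exon had 0.519 and 0.648, and the 105-nt exon 0.954 and 0.963. Pde10a had 23 and 14 reads in all over its 123-nt event, too few to compare. None of the 7 had a padj below 0.05 in the authors' deposited table, in which 4.96% of 5287 events did.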

How the data were processed

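The analysis used the 2 deposited junction tables of nucleus accumbens RNA. STAR 2.4.1d, Bowtie2, mm9 and mm10 are named per the submitters' processing notes, without a role; how events were called is not stated there. Reads stand in the tables as whole numbers joined by commas, with no library names. A total of 5 per-library series of values (HSV) and 32 per-run series (dCas9-SET2) thus belong to no named sample, and no count model was fitted. The authors deposited a p-value and FDR (HSV) or padj (dCas9-SET2) for each event, from a test that the sources do not describe, and a difference score (IncLevelDifference or dPSI).

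Inclusion levels were recomputed as reads over form length and matched the deposited ones within 0.001 in 100% of values. TMM factors (trims 0.3 and 0.05) scaled the coverage of the deepest event, which was then, with 0.5 reads added, fitted as log2 CPM with limma 3.58.1 in R 4.3.3, using a spread trended on coverage, for genes with a mean of 20 reads per library. The added reads understate differences of low genes. Inclusion was fitted as a logit with weights from the reads, with 10 reads of the rarer form required. There limma shrank the spread fully to a value shared by all events. The SE and p-values of inclusion thus do not reflect how far each exon's own libraries differ. Tests were two-sided with Benjamini-Hochberg adjustment over all features and a threshold of 0.05. The scripts were tested on simulated data. All 10 genes, at most 3 increases and 3 decreases of a pathway list, at most 2 genes of a marker list and the 5 nearest profiles could be named. The members, lists and rules were chosen with earlier results of these data known. Genes were named through 9430 of 9542 matched identifiers. The alternatives changed the scaling, added reads, minimum, coverage measure, weights and libraries; the fit per event and the count with both identical run positions kept were chosen after seeing the data.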

Additional observations from a re-analysis of the deposited data

How the results depend on the processing

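All 120 alternative coverage values of the 10 genes kept direction, with ranges such as -0.91 to -0.40 for Tac1 and 0.87 to 1.80 for Cartpt. The calls held wherever both libraries of set A were kept. No member inclusion event was called in any setting. Of the alternative logit differences of inclusion, 115 kept their sign and 11 reversed it, none called and the cause was not tested: without weights 0.132 for the 121-nt and 0.1315 for a 156-nt exon of Pde10a, and the others when 1 library was left out, where the values ran from -0.03268 to 0.1787 for the 38-nt, -0.3861 to 0.1535 for the 99-nt and -0.03639 to 0.4702 for the 105-nt exon of Arpp21, and from -0.3695 to 0.2646 for the 121-nt, -0.9294 to 0.1241 for a 141-nt and -1.136 to 0.5584 for a 156-nt exon of Pde10a. The count of striatal transcription factors higher, 1, became 0 with reads divided by form length and ranged from 0 to 1 without single libraries. Without single libraries, 1 to 4 neuropeptide genes were lower and 3 to 6 higher. With medians over runs, all 3 members of the dCas9-SET2 table had a higher share in the second set, with log2 0.1213 for Arpp21 and 0.9398 for Tac1. Pde10a had a median of 1 read per run in each set, too few to compare. No paired analysis was possible because the columns carry no replicate numbers. Depth limits the dCas9-SET2 table most, where the deepest event of a gene had a median of 5.37 reads per run. With 1 library of set A left out, the other is assumed to vary like set B.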
